A study of Mus musculus with 3 samples.

Results

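T cells and NK cells carry receptors that restrain them, and PD-1 is only one of these. The genes described here encode 9 others: Ctla4 (CTLA-4), Lag3 (LAG-3), Havcr2 (TIM-3), Tigit, Cd160, Btla, Vsir (VISTA), Cd96 and Cd244a (2B4). All 9 were found among the 32285 genes of droplet single-cell RNA sequencing of mouse non-small cell lung cancer, and their UMIs (molecular tags that count each captured transcript once) were counted in every barcode with at least 500 UMIs, at least 200 genes and at most 20% mitochondrial UMIs. The 3 libraries carry the labels AI-Exo, PD-L1 and PBS, with 1 library per group. The design text speaks of immune cells after drug treatment, and the title of exosomes that inhibit autophagy and immune tolerance. The labels do not spell out PD-L1 or AI-Exo, and no source used here gives the tumour model, strain, age, dose, number of animals or any cell sort.

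These receptors hold immune cells in check in several ways. CTLA-4 competes with the activating receptor CD28 for CD80 and CD86 and is made constitutively by regulatory T cells. LAG-3 binds MHC class II, TIM-3 binds galectin-9 and other ligands, TIGIT and CD96 compete with the activating receptor CD226 for nectins and the poliovirus receptor, BTLA and CD160 bind HVEM, and 2B4 binds CD48. VISTA is best known from myeloid cells and naive T cells. In tumours, CD8 T cells under lasting antigen stimulation are known to accumulate PD-1 together with LAG-3, TIM-3 and TIGIT, while BTLA and TIM-3 are also made by B cells or dendritic cells.

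The barcodes kept numbered 10457 in AI-Exo, 9697 in PD-L1 and 9359 in PBS, with medians of 4425.0, 3948.0 and 4380.0 UMIs in that order. Of these barcodes, 33 were shared by AI-Exo and PD-L1, 26 by AI-Exo and PBS, and 23 by PD-L1 and PBS. Cells were sorted into classes by panels of marker genes. The 1400, 1428 and 1347 barcodes with markers of unrelated lineages, or of NK or group 2 innate lymphoid cells together with T cells, were left out. The CD8-gated class held 745 cells in AI-Exo, 498 in PD-L1 and 603 in PBS, and the CD4-gated class, which holds no cell with a Foxp3 UMI, held 482, 357 and 376. Cd3e, a T cell receptor component, was at 413.9, 440.4 and 415.6 CPM (UMIs per 1000000 UMIs of the class) in CD8-gated cells and at 0.294, 8.89 and 1.14 CPM in NK-gated cells. Cd3e is itself a marker of the T cell panel. The gate thus fixed this difference in advance, and it is no check of the classes. Levels are CPM of all UMIs of a class in a library, and intervals are exact 95% Poisson intervals that cover counting error only. With a single library per group no difference has a replicate check and no test was made. A ratio is called higher or lower past 1.5-fold on CPM plus 10, for genes with a mean of at least 10 CPM in the libraries compared, and log2 ratios are given on that scale, which pulls low genes toward 0.

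The TIGIT, CD96 and CD160 genes were mostly T and NK cell genes in this tissue. The CTLA-4 gene was mostly a T cell gene, apart from plasma cells at 145.6 CPM over all libraries. Ctla4 was highest in the Foxp3-gated T cells, at 1061.2 CPM in AI-Exo, 1025.7 CPM in PD-L1 and 1009.5 CPM in PBS, each above every CD4-gated value. Over all libraries Ctla4 stood at 1037.3 CPM in Foxp3-gated cells (969.2 to 1108.9), 303.9 CPM in CD4-gated cells, 138.3 CPM in CD8-gated cells and 11.9 CPM in NK-gated cells. Tigit had the same leading class, with 63.7 CPM in Foxp3-gated cells (47.7 to 83.3). Behind it, CD8-gated cells at 19.5 CPM (16.9 to 22.4), NK-gated cells at 16.3 CPM (13.1 to 20.1) and CD4-gated cells at 14.7 CPM (11.9 to 17.9) had intervals that overlap. Cd160 was shared by NK-gated cells, at 57.2 CPM (51.0 to 64.0), and CD8-gated cells, at 51.8 CPM (47.6 to 56.4), against 4.94 CPM in CD4-gated cells. Over all libraries Cd96 was highest in gamma-delta T cells, at 72.1 CPM (52.2 to 97.1) from 43 UMIs in 126 cells. Their lowest library had 17.0 CPM, below the lowest library of CD8-gated cells at 39.0 CPM, so this lead did not hold in each library. Cd96 was at 48.7 CPM in CD8-gated and 47.0 CPM in CD4-gated cells and less in Foxp3-gated cells, at 22.8 CPM (13.7 to 35.7). Lag3 was highest in the 33 plasmacytoid dendritic cells, at 95.4 CPM (60.5 to 143.2) from 23 UMIs, and among T cells in CD8-gated cells, at 37.6 CPM (34.0 to 41.5), and Foxp3-gated cells, at 31.3 CPM (20.4 to 45.8).

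The other 4 genes were led by B cells, myeloid cells or NK cells, by their values over all libraries. Btla stood at 479.3 CPM in B cells (470.8 to 487.9), 264.5 CPM in type 1 conventional dendritic cells (cDC1), 138.5 CPM in mature dendritic cells and 87.6 CPM in CD4-gated T cells, with no overlap of intervals between B cells and any of these. Havcr2 was led by cDC1 at 219.3 CPM (203.0 to 236.6), then type 2 conventional dendritic cells (cDC2) at 96.1 CPM, monocytes at 73.6 CPM and alveolar macrophages at 68.7 CPM. CD8-gated T cells held 51.7 CPM of Havcr2 and B cells 1.77 CPM. Vsir was highest in monocytes at 141.4 CPM (135.9 to 147.0), macrophages at 119.4 CPM and neutrophils at 101.8 CPM, each above CD4-gated cells at 64.1 CPM and CD8-gated cells at 60.0 CPM. Cd244a was led by NK-gated cells at 144.3 CPM (134.3 to 154.8), followed by neutrophils at 88.5 CPM and monocytes at 84.1 CPM, while CD8-gated cells held 11.3 CPM. Plasma cells, 103 over the libraries, held Ctla4 at 126.8 CPM in AI-Exo, 263.6 CPM in PD-L1 and 119.7 CPM in PBS, beside Trac, a T cell receptor gene, at 43.8, 14.6 and 5.61 CPM there.

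**Figure D1:**
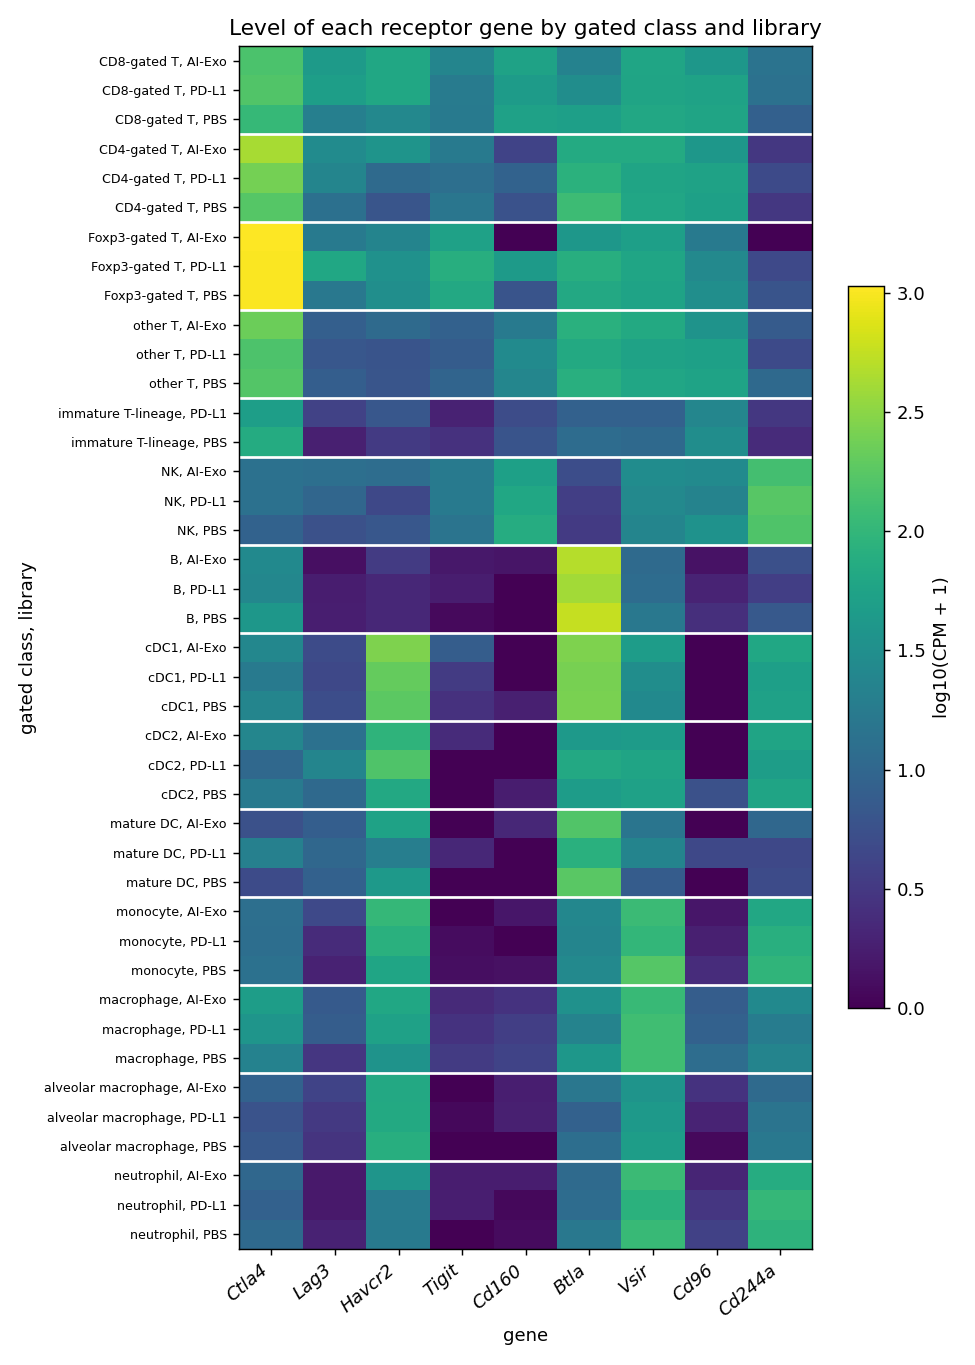
Each tile gives the log10 of CPM plus 1 of a receptor gene (columns) in a marker-gated class and library (rows). Btla is brightest in B cells, Ctla4 in Foxp3-gated T cells, Havcr2 in cDC1 and Cd244a in NK-gated cells, and this holds in each library drawn.

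In CD8-gated T cells, the classical killers of tumour cells, Lag3 and Havcr2 were higher in both treated libraries than in PBS, and Btla was lower. Lag3 had 198 UMIs or 43.4 CPM in AI-Exo (37.5 to 49.8), 135 UMIs or 48.5 CPM in PD-L1 (40.7 to 57.4) and 60 UMIs or 19.3 CPM in PBS (14.7 to 24.8). Havcr2 had 63.1 CPM in AI-Exo (56.0 to 70.8), 62.9 CPM in PD-L1 (53.9 to 73.0) and 25.1 CPM in PBS (19.8 to 31.3). Btla ran the other way, with 21.0 CPM in AI-Exo (17.0 to 25.7), 29.8 CPM in PD-L1 (23.8 to 37.0) and 49.8 CPM in PBS (42.3 to 58.3). For each of these 3 genes the AI-Exo and PD-L1 intervals overlapped each other and neither reached the PBS interval. The CPM ratio of AI-Exo over PBS was 2.25 for Lag3 (1.68 to 3.05), 2.52 for Havcr2 (1.95 to 3.27) and 0.422 for Btla (0.324 to 0.548). The ratio of PD-L1 over PBS, which shares the PBS library, was 2.52 for Lag3 (1.84 to 3.47), 2.51 for Havcr2 (1.91 to 3.32) and 0.599 for Btla (0.453 to 0.787). One PBS cell held 19.2% of the PBS Havcr2 UMIs, and without the cell of most UMIs in each library the log2 ratio of AI-Exo over PBS was 1.20 in place of 1.06.

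Of the 9 receptor genes, 3 of 9 tested were called in CD8-gated cells for AI-Exo over PBS, where 5.14% of all genes tested were called. In PD-L1 over PBS 3 of 8 were called, against 2.73% of all genes, and for AI-Exo over PD-L1 0 of 9 were called, against 2.58%. The median log2 ratio of the receptors was 0.30 for AI-Exo over PBS and -0.03 for PD-L1 over PBS, beside 0.02 over all genes in each. Ctla4, the most counted receptor gene of these cells, was at 148.3 CPM in AI-Exo (137.3 to 159.9), 158.6 CPM in PD-L1 (144.1 to 174.1) and 105.4 CPM in PBS (94.3 to 117.5), with log2 ratios of 0.46 and 0.55 over PBS that stayed within 1.5-fold. Both treated libraries thus lay above PBS by more than counting error, but by less than the size used for a call. The remaining genes also stayed within 1.5-fold or were not tested. Tigit was at 22.8, 17.3 and 16.7 CPM, Cd160 at 54.8, 45.3 and 53.4 CPM, Vsir at 59.1, 57.5 and 63.6 CPM, Cd96 at 39.0, 53.9 and 58.2 CPM and Cd244a at 13.1, 12.6 and 7.39 CPM in AI-Exo, PD-L1 and PBS. With a stricter gate, which requires at least 3 panel UMIs and none of another lineage, the call of Havcr2 for AI-Exo over PBS ended (log2 ratio 0.55) and that of Btla for PD-L1 over PBS ended (-0.50), as it did without dividing cells (-0.44).

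**Figure D2:**
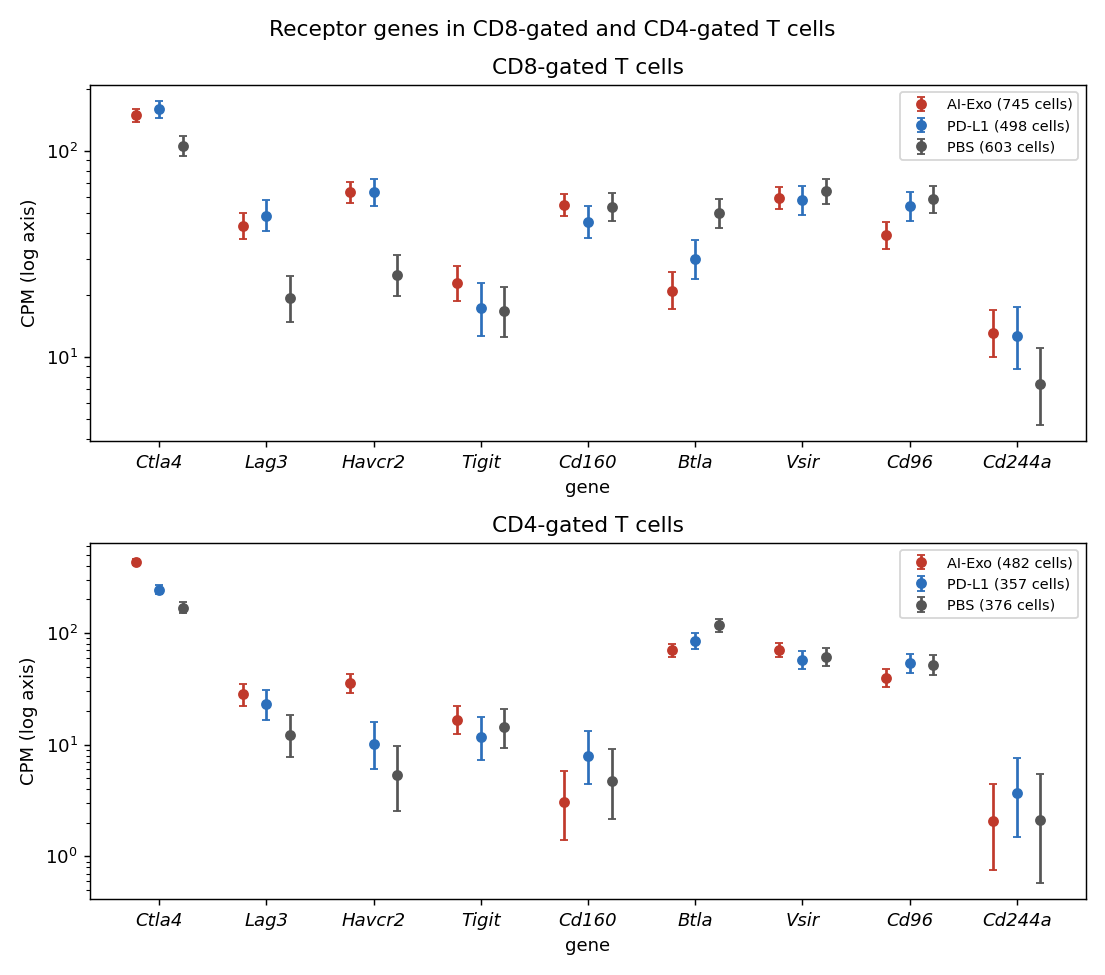
CPM (log axis) of the 9 receptor genes in CD8-gated (top) and CD4-gated (bottom) T cells, with 1 point per library and bars for exact 95% Poisson intervals. Lag3 and Havcr2 lie higher, and Btla lower, in AI-Exo and PD-L1 than in PBS in the CD8-gated cells, while Ctla4 and Havcr2 of AI-Exo lie above both other libraries in the CD4-gated cells.

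The CD8-gated cells of the 3 libraries also differed in their make-up. Cells with at least 2 UMIs of 6 effector genes (Ccl5, Nkg7, Gzmk, Gzma, Gzmb and Cxcr6) made up 94.1% in AI-Exo, 82.1% in PD-L1 and 80.8% in PBS. Lag3 and Havcr2 were found almost wholly in those cells. In the 44, 89 and 116 cells without the effector genes, Lag3 had 0 UMIs in AI-Exo, 1 in PD-L1 and 0 in PBS, and Havcr2 had 1, 4 and 1. Within the effector-gene-positive cells Lag3 stood at 45.6 CPM in AI-Exo, 57.6 CPM in PD-L1 and 22.9 CPM in PBS, and Havcr2 at 66.1, 73.6 and 29.4 CPM, so both differences from PBS were also there. Btla within those cells was at 20.5, 29.7 and 46.2 CPM, and its call for PD-L1 over PBS ended there (log2 ratio -0.50). Tcf7, a transcription factor of naive and memory T cells, was at 131.0, 180.5 and 216.9 CPM in all CD8-gated cells.

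Cells with at least 2 UMIs of 6 genes of cell division made up 24.0% of CD8-gated cells in AI-Exo, 16.5% in PD-L1 and 11.9% in PBS. Dividing cells were close to one another in Lag3, at 61.8, 57.4 and 51.0 CPM, and nearer in Havcr2, at 101.4, 79.8 and 70.7 CPM in AI-Exo, PD-L1 and PBS. The larger gaps were in the other cells. Without division genes Lag3 was at 30.3 CPM in AI-Exo, 45.0 CPM in PD-L1 and 11.6 CPM in PBS, and Havcr2 at 35.9, 56.1 and 14.0 CPM. In those cells both genes were highest in PD-L1, whereas AI-Exo and PD-L1 were level over all CD8-gated cells. The part of these shares in the receptor levels was not tested beyond the values given.

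CD4-gated T cells, which help other immune cells, had most calls for AI-Exo over PBS, while the place of PD-L1 depended on the gate. Ctla4 had 1253 UMIs or 430.6 CPM in AI-Exo, 459 UMIs or 244.2 CPM in PD-L1 and 317 UMIs or 168.1 CPM in PBS. Havcr2 had 103 UMIs or 35.4 CPM in AI-Exo, 19 UMIs or 10.1 CPM in PD-L1 and 10 UMIs or 5.30 CPM in PBS. Lag3 was at 28.2 CPM in AI-Exo, 22.9 CPM in PD-L1 and 12.2 CPM in PBS, and Btla at 69.8, 85.1 and 117.7 CPM. For AI-Exo over PBS, Lag3, Havcr2 and Btla were thus called here as in CD8-gated cells and in the same directions, together with Ctla4. The CPM ratio of AI-Exo over PBS was 2.56 for Ctla4 (2.26 to 2.91), 6.68 for Havcr2 (3.49 to 14.3), 2.31 for Lag3 (1.44 to 3.85) and 0.593 for Btla (0.488 to 0.720). AI-Exo over PD-L1 gave 1.76 for Ctla4 (1.58 to 1.97) and 3.50 for Havcr2 (2.13 to 6.05). With the stricter gate the log2 ratio of Havcr2 for AI-Exo over PBS was 0.69 in place of 1.57, the call of Btla ended at -0.51, and that of Ctla4 for AI-Exo over PD-L1 ended at 0.17, while Ctla4 for PD-L1 over PBS became a call at 1.21 in place of 0.51.

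In CD4-gated cells 4 of 7 receptors tested were called for AI-Exo over PBS, where 5.28% of all genes were called. For PD-L1 over PBS 0 of 6 were called, against 4.95% of all genes, and for AI-Exo over PD-L1 2 of 7, against 7.38%. The median log2 ratio of the receptors was 0.18, -0.02 and 0.25 in these comparisons, and over all genes it was -0.02, 0.00 and -0.02. Tigit (16.8, 11.7 and 14.3 CPM), Vsir (70.5, 57.5 and 61.0 CPM) and Cd96 (39.5, 53.7 and 52.0 CPM) were not called. Cd160 and Cd244a stayed under 10 CPM in every library. The UMIs of Ctla4 were spread over many cells, with at least 5 in 92 of 482 AI-Exo cells, 27 of 357 PD-L1 cells and 16 of 376 PBS cells, and the highest cell held 2.71%, 5.66% and 4.73% of them. After each cell was thinned to 1000 UMIs, Ctla4 was found in 22.8% of the CD4-gated cells of AI-Exo (19.1 to 26.8), 16.5% in PD-L1 (12.8 to 20.8) and 16.0% in PBS (12.5 to 20.2), against 0.692%, 0.641% and 0.677% of neutrophils. Unthinned, 239, 141 and 130 CD4-gated cells had a Ctla4 UMI, at median depths of 4824.0, 4602.0 and 4249.0 UMIs. The libraries thus differed less in the share of cells than in CPM.

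Part of the CD4-gated class carried genes linked to regulatory T cells although no Foxp3 UMI was found in it. Ikzf2, the transcription factor Helios, was at 282.2 CPM in AI-Exo, 310.7 CPM in PD-L1 and 124.1 CPM in PBS, and at 1533.8, 1727.8 and 1468.8 CPM in the Foxp3-gated cells. Cells with a UMI of Ikzf2 or of Il2ra, the high-affinity interleukin-2 receptor chain, made up 38.8% of the CD4-gated class in AI-Exo (34.4 to 43.3), 31.1% in PD-L1 (26.3 to 36.2) and 22.9% in PBS (18.7 to 27.5). These cells were the richer ones in Ctla4, at 627.3, 439.3 and 279.9 CPM, against 231.2, 134.0 and 124.1 CPM in the rest. With them left out, the log2 ratio of AI-Exo over PBS was 0.85 for Ctla4 and 0.72 for Havcr2, in place of 1.31 and 1.57, and the calls of Lag3 (0.32) and Btla (-0.39) ended. For AI-Exo over PD-L1 Ctla4 remained past the size at 0.74 and Havcr2 did not at 0.45. Btla reached a call for PD-L1 over PBS, at -0.65. Cells with an Ikzf2 or Il2ra UMI were not particular to the CD4-gated class. They made up 21.5% of CD8-gated cells in AI-Exo, 26.3% in PD-L1 and 18.9% in PBS. There too they were richer in Ctla4, at 213.9, 195.7 and 166.3 CPM, against 118.9, 136.3 and 82.4 CPM in the rest. Whether such cells are regulatory T cells was not tested.

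The CD4-gated cells with effector genes made up 47.5% in AI-Exo, 28.3% in PD-L1 and 48.9% in PBS. In them Ctla4 was at 603.7 CPM in AI-Exo, 376.7 CPM in PD-L1 and 194.3 CPM in PBS, and Havcr2 at 61.8, 30.0 and 8.97 CPM. Both orders followed those of the whole class, although AI-Exo and PBS held nearly the same share of such cells. Without effector genes Havcr2 was at 1.57, 2.23 and 1.13 CPM, so its UMIs lay almost wholly in effector-gene-positive cells here too. Btla showed another pattern, with 36.7 CPM in AI-Exo, 91.8 CPM in PD-L1 and 58.8 CPM in PBS in cells with effector genes, and 112.0, 82.5 and 184.8 CPM in cells without. Dividing cells, 18.7%, 16.2% and 13.3% of the class, had Ctla4 at 591.8, 251.2 and 141.6 CPM, and the other cells 342.2, 241.8 and 176.4 CPM. With dividing cells left out, the log2 ratio of Ctla4 for AI-Exo over PD-L1 was 0.48 and no longer called, and for AI-Exo over PBS Havcr2 was at 0.95 while the calls of Lag3 (0.57) and Btla (-0.56) ended. With every cell weighing the same, the call of Ctla4 for AI-Exo over PD-L1 ended at 0.52.

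**Figure D3:**
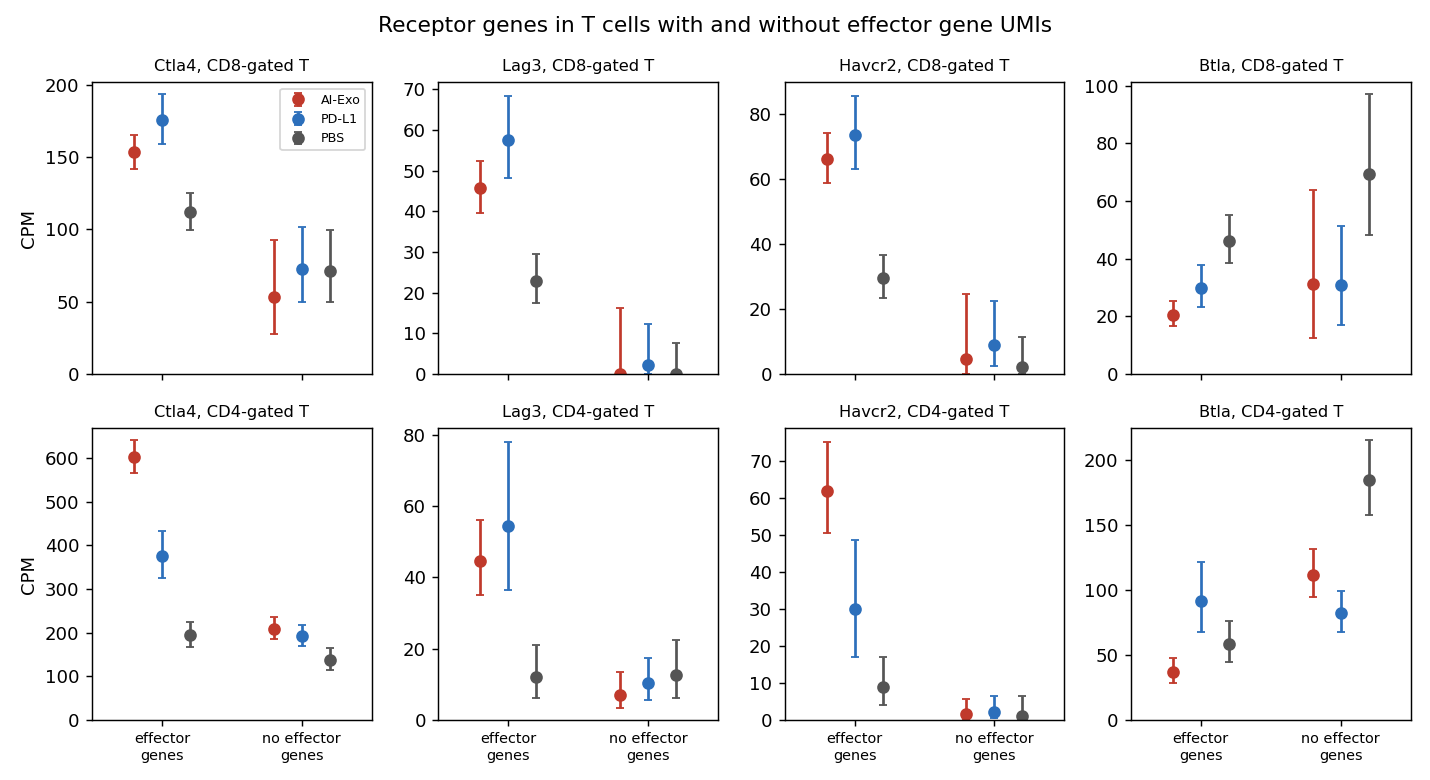
CPM with exact 95% Poisson intervals of Ctla4, Lag3, Havcr2 and Btla in CD8-gated (top) and CD4-gated (bottom) T cells, split by effector genes, 1 point per library. Lag3 and Havcr2 sit near 0 in CD8-gated cells without effector genes, and Btla in CD4-gated cells of AI-Exo and PBS is higher without effector genes than with them.

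The 250 bases before the start of Ctla4, Havcr2 and Btla are shown because these genes were the ones called for AI-Exo over PBS in CD4-gated cells and have a RefSeq promoter entry, on build GRCm38.p6. Capitals mark matches to letters bound by factors of T cell activation, on either strand: the AP-1 letters TGANTCA and the NFAT core GGAAA. Entries were found for 8 of the 9 genes, Lag3 being the one without.
Ctla4, chr1:60908775-60909024, plus strand: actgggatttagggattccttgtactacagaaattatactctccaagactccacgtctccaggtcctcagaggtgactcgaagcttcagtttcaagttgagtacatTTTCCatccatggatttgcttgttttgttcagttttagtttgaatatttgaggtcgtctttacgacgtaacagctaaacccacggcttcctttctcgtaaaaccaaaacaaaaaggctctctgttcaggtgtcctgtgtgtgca
Havcr2, chr11:46454681-46454930, plus strand: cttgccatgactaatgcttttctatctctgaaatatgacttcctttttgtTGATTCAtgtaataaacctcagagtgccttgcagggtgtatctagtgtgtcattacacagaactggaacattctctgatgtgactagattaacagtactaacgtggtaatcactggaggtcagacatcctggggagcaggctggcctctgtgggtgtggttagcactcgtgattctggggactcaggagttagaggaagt
Btla, chr16:45224087-45224336, plus strand: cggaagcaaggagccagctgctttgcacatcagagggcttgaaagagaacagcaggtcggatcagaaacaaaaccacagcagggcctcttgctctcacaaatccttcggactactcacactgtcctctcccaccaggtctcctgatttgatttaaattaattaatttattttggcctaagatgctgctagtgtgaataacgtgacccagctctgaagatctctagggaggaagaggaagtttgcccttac
Ctla4 held 1 NFAT core, on the minus strand at bases -144 to -140. Havcr2 held 1 match to TGANTCA, with the letters TGATTCA, at -200 to -194, and Btla held neither. The NFAT core was found in 55.6% of all 32851 promoters of this length and TGANTCA in 6.75%. The T-box letters AGGTGTGA, found in 1.12% of promoters, were in no window of the 8 genes. A match describes letters only, and a window without one says nothing of the factor.

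Foxp3-gated T cells, which suppress other T cells, numbered 43 in AI-Exo, 34 in PD-L1 and 27 in PBS. Their Ctla4 was level across libraries, with 384, 279 and 200 UMIs, and log2 ratios within 1.5-fold. The cell of most UMIs held 8.07% of the Ctla4 UMIs in AI-Exo, 21.1% in PD-L1 and 28.0% in PBS. The other receptors rested on few UMIs. Lag3 had 6 UMIs in AI-Exo, 17 in PD-L1 and 3 in PBS, and 1 PD-L1 cell held 47.1% of the 17. Cd160 had 0, 12 and 1 UMIs, and all 12 of PD-L1 were in 1 cell. Btla had 14, 21 and 13 UMIs, of which 1 PD-L1 cell held 47.6% of the 21 and 1 PBS cell 46.2% of the 13. For AI-Exo over PBS 2 of 7 receptors were called, Btla (-0.64) and Cd96 (-0.60, which turned to 0.51 with the stricter gate), where 32.8% of all genes were called. Without the cell of most UMIs in each library these ratios were -0.06 for Btla and -0.27 for Cd96, and neither was called. PD-L1 over PBS gave 2 of 8 called, Lag3 and Cd160, against 33.0%, and AI-Exo over PD-L1 3 of 8, against 29.4%. These shares are near those of all genes in so few cells. Tigit stood at 52.5, 77.2 and 65.6 CPM from 19, 21 and 13 UMIs.

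NK-gated cells, innate killers that use CD96, TIGIT, CD160 and 2B4, numbered 605 in AI-Exo, 235 in PD-L1 and 219 in PBS. Cd244a was at 132.1 CPM in AI-Exo (120.1 to 144.9), 171.6 CPM in PD-L1 (148.3 to 197.6) and 156.7 CPM in PBS (131.6 to 185.3). Cd160 was at 51.5 CPM (44.1 to 59.7), 62.3 CPM (48.5 to 78.7) and 73.2 CPM (56.4 to 93.5). Both genes had overlapping intervals in AI-Exo and PBS, which does not show equal levels. The Cd244a intervals of AI-Exo and PD-L1 did not overlap. Cd96 was at 26.8, 21.3 and 34.3 CPM and Tigit at 16.8, 16.9 and 13.7 CPM. In NK-gated cells 0 of 6 receptors were called for AI-Exo over PBS, against 6.87% of all genes, 0 of 6 for PD-L1 over PBS, against 7.91%, and 0 of 7 for AI-Exo over PD-L1, against 4.59%. T cells that fell in no subset also had 0 of 5 called in each comparison, against 2.70%, 2.65% and 2.31% of all genes, with Ctla4 at 218.8, 150.9 and 161.5 CPM. Over the CD8-gated, CD4-gated, Foxp3-gated and NK-gated classes together, 9 of 29 gene and class pairs were called for AI-Exo over PBS (12.6% of all pairs), 5 of 28 for PD-L1 over PBS (12.2%) and 5 of 31 for AI-Exo over PD-L1 (11.1%).

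PD-1 itself, the gene Pdcd1, is not among the 9 genes, but it marks the cells in which several of them are known to be made. In CD8-gated cells Pdcd1 was at 86.5 CPM in AI-Exo, 88.4 CPM in PD-L1 and 45.6 CPM in PBS, and 174, 112 and 45 cells had a Pdcd1 UMI, which is 23.4% (20.4 to 26.6), 22.5% (18.9 to 26.4) and 7.46% (5.50 to 9.86). Their median depths were 5349.0, 5365.0 and 7338.0 UMIs, against 4366.0, 4225.0 and 4340.0 in cells without. Lag3 in cells with a Pdcd1 UMI was at 101.3 CPM in AI-Exo, 116.2 CPM in PD-L1 and 83.0 CPM in PBS, against 16.9, 20.4 and 8.29 CPM in cells without. Havcr2 was at 133.5, 156.6 and 85.2 CPM with Pdcd1, against 30.9, 23.9 and 14.7 CPM without. Ctla4 was at 220.2, 278.9 and 231.5 CPM with Pdcd1, against 115.5, 108.5 and 83.7 CPM without, and Tigit at 37.7, 39.1 and 56.8 CPM against 15.9, 8.15 and 9.80 CPM. All 4 genes were thus higher in the cells with a Pdcd1 UMI in each library. Btla was lower in them, at 9.79, 23.2 and 17.5 CPM against 26.2, 32.6 and 55.4 CPM, and Cd244a had no single order, with 20.3, 24.5 and 2.18 CPM against 9.89, 7.64 and 8.29 CPM. Cd160 was at 90.9, 72.2 and 61.1 CPM with Pdcd1, against 38.3, 34.1 and 52.0 CPM without, with intervals that overlap in PBS alone. Log2 ratios of AI-Exo and PD-L1 over PBS were 0.26 and 0.44 for Lag3 among cells with a Pdcd1 UMI. For Havcr2 they were 0.59 and 0.81, still past 1.5-fold. Among cells without a Pdcd1 UMI they were 0.56 and 0.73 for Lag3 and 0.73 and 0.46 for Havcr2. On this scale the differences from PBS were thus smaller in both parts than among all CD8-gated cells. The 10 CPM added pull ratios of low levels toward 0, such as those of Lag3 without a Pdcd1 UMI. Part of the smaller size in those cells is thus due to the scale. As plain differences in CPM, the differences from PBS were not all smaller among cells with a Pdcd1 UMI. The part of Pdcd1-positive cells in the receptor levels was not tested.

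**Figure D4:**
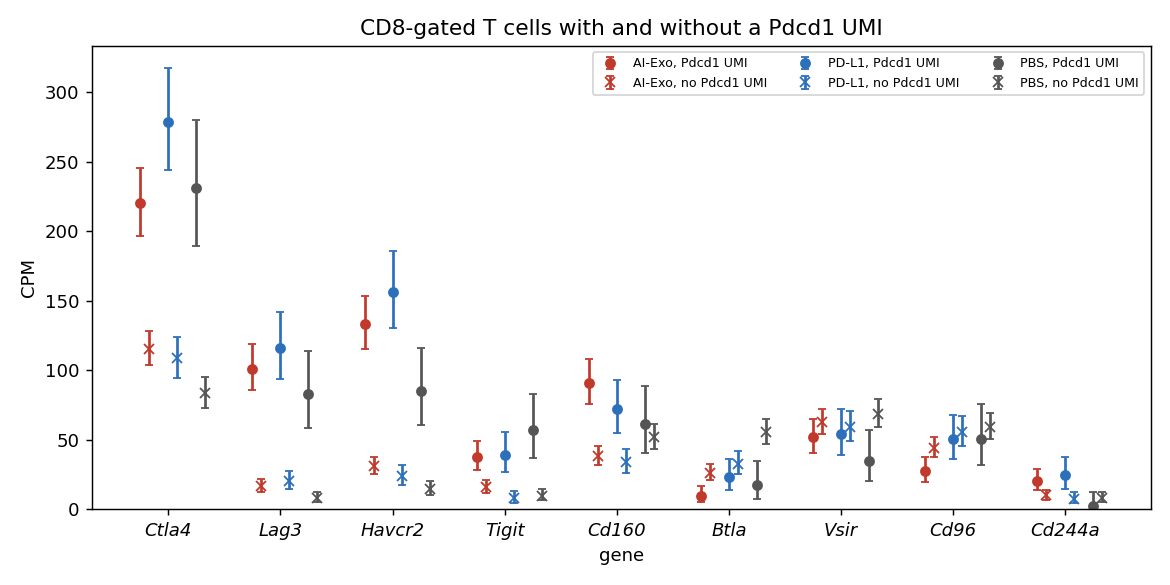
CPM with exact 95% Poisson intervals of the receptor genes in CD8-gated T cells with a Pdcd1 UMI (circles) and without (crosses), 1 colour per library. Lag3, Havcr2, Ctla4 and Tigit are higher, and Btla lower, in the cells with a Pdcd1 UMI in every library.

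Cells with several receptors at once were counted after thinning to 1000 UMIs. At least 2 of the 9 genes were found in 6.45% of CD8-gated cells in AI-Exo (4.79 to 8.46), 5.03% in PD-L1 (3.28 to 7.34) and 4.49% in PBS (2.98 to 6.46), with intervals that overlap, and in 1.59%, 1.39% and 1.65% of neutrophils. At least 3 were found in 7 of 744 cells, 2 of 497 cells and 0 of 602 cells, and 1 shallower cell was left out of each library. Unthinned, at least 2 were found in 43.9%, 39.4% and 35.0%. In AI-Exo, Ctla4 and Pdcd1 were found together in 8 CD8-gated cells, where the product of their shares gives 3.91, and Havcr2 and Pdcd1 in 4 cells, where it gives 1.38. Ctla4 and Havcr2 met in 6 cells, where the product gives 3.91. Ctla4 and Pdcd1 in PD-L1 met in 2 cells, where it gives 3.83. At this depth such counts are too small to show whether libraries differ.

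Monocytes and macrophages, which use TIM-3 and VISTA, held more Havcr2 in AI-Exo than in PBS. In monocytes Havcr2 was at 103.3 CPM in AI-Exo, 82.8 CPM in PD-L1 and 59.3 CPM in PBS, a CPM ratio of 1.74 for AI-Exo over PBS (1.53 to 1.98). In macrophages it was at 62.7, 53.2 and 34.8 CPM, a ratio of 1.80 (1.49 to 2.18). The order AI-Exo, PD-L1, PBS was thus the same in both classes. Havcr2 was the only 1 of 5 receptors called in monocytes for AI-Exo over PBS, against 8.30% of all genes, and 2 of 5 were called in macrophages, against 7.38%. Vsir in monocytes was at 115.8 CPM in AI-Exo, 98.7 CPM in PD-L1 and 165.9 CPM in PBS, and was the 1 of 5 receptors called for PD-L1 over PBS (log2 ratio -0.69), against 13.3% of all genes. Alveolar macrophages, with Havcr2 at 65.2, 67.0 and 76.9 CPM, had 0 of 4, 0 of 3 and 0 of 4 receptors called for AI-Exo over PBS, PD-L1 over PBS and AI-Exo over PD-L1, where 2.73%, 1.16% and 1.66% of all genes were called.

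The second call in macrophages was Ctla4, at 47.4 CPM in AI-Exo, 37.2 CPM in PD-L1 and 21.1 CPM in PBS. T cell genes were counted in the same class, with Cd3e at 45.6, 74.9 and 69.1 CPM and in 27.3%, 32.3% and 37.9% of the cells, and with Trac at 57.8, 65.1 and 51.7 CPM. Cd3e was lowest in AI-Exo, where Ctla4 was highest, and Trac was lowest in PBS, as Ctla4 was. The part of T cell RNA in the Ctla4 level was not tested. Ctla4 (0.60) and Btla (-0.64) were the 2 of 5 called in macrophages for PD-L1 over PBS, against 4.32% of all genes. One PD-L1 cell held 19.2% of the Ctla4 UMIs of that class. Between AI-Exo and PD-L1 0 of 5 were called in macrophages, against 4.98%, and 0 of 5 in monocytes, against 7.30%.

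Neutrophils, short-lived granulocytes, held Havcr2 at 36.8 CPM in AI-Exo, 17.1 CPM in PD-L1 and 16.9 CPM in PBS, a CPM ratio of 2.18 for AI-Exo over PBS (1.66 to 2.87). It was the 1 of 4 receptors called there for AI-Exo over PBS, against 6.94% of all genes, and for AI-Exo over PD-L1, against 9.38%. Lyz2, a lysozyme gene of monocytes and granulocytes, moved with it, at 2573.3, 816.9 and 1053.4 CPM in neutrophils, and its part in the Havcr2 level was not tested. The median of all genes in neutrophils for PD-L1 over PBS was -0.15, and 0 of 4 receptors were called, against 8.02%. Cd244a in neutrophils was at 72.9, 104.0 and 89.4 CPM, and Vsir at 114.4, 84.6 and 108.5 CPM.

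Dendritic cells, which present antigen to T cells, carried Btla and Havcr2. In cDC1 Havcr2 was at 272.7 CPM in AI-Exo, 202.1 CPM in PD-L1 and 184.9 CPM in PBS, a log2 ratio of 0.54 over PBS that stayed within 1.5-fold, and Btla was at 277.6, 255.3 and 259.6 CPM. The 1 of 5 receptors called in cDC1 was Vsir for AI-Exo over PBS, at 46.6 and 26.3 CPM, against 9.28% of all genes, while 0 of 5 were called for PD-L1 over PBS, against 9.91%, and for AI-Exo over PD-L1, against 10.0%. In cDC2 Havcr2 was at 93.2 CPM in AI-Exo, 153.9 CPM in PD-L1 and 65.5 CPM in PBS. One PD-L1 cell held 27.4% of its UMIs there, and Havcr2 and Lag3 were the 2 of 6 receptors called for PD-L1 over PBS, against 14.5% of all genes. AI-Exo over PBS gave 0 of 6 in cDC2, against 13.7%, and AI-Exo over PD-L1 gave 2 of 6, against 19.5%.
Mature dendritic cells of PD-L1 stood apart from both other libraries, but on few cells and UMIs. Their Btla was at 158.5 CPM in AI-Exo, 81.6 CPM in PD-L1 and 179.5 CPM in PBS, and their Havcr2 at 54.4, 18.6 and 42.9 CPM. Ctla4 had 4, 17 and 3 UMIs there and Vsir 13.9, 22.1 and 6.50 CPM, from 12, 19 and 5 UMIs. The cell of most UMIs held 35.3% of the Ctla4 UMIs of PD-L1. For Havcr2 such a cell held 37.5% of the UMIs in PD-L1 and 39.4% in PBS. All 4 of 4 receptors tested were called for PD-L1 over PBS, Ctla4 and Vsir higher and Btla and Havcr2 lower, against 14.7% of all genes. For AI-Exo over PD-L1 3 of 4 were called, against 14.8%, and for AI-Exo over PBS 0 of 3, against 15.2%. The class held 79, 73 and 63 cells, so that the ratio of Ctla4 for PD-L1 over PBS, 5.08, had an interval of 1.47 to 27.0.

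B cells, the leading source of Btla, held it at 488.8 CPM in AI-Exo, 403.8 CPM in PD-L1 and 573.2 CPM in PBS, with 0 of 3 receptors called in each comparison, where 0.968%, 1.13% and 1.09% of all genes were called for AI-Exo over PBS, PD-L1 over PBS and AI-Exo over PD-L1. The log2 ratio of Btla was -0.23 for AI-Exo over PBS and -0.49 for PD-L1 over PBS, and that of Ctla4 -0.42 and -0.51. Fewer genes passed 1.5-fold in B cells than in the other classes, and in AI-Exo and PD-L1 their Btla stayed within 1.5-fold of PBS.

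**Figure D5:**
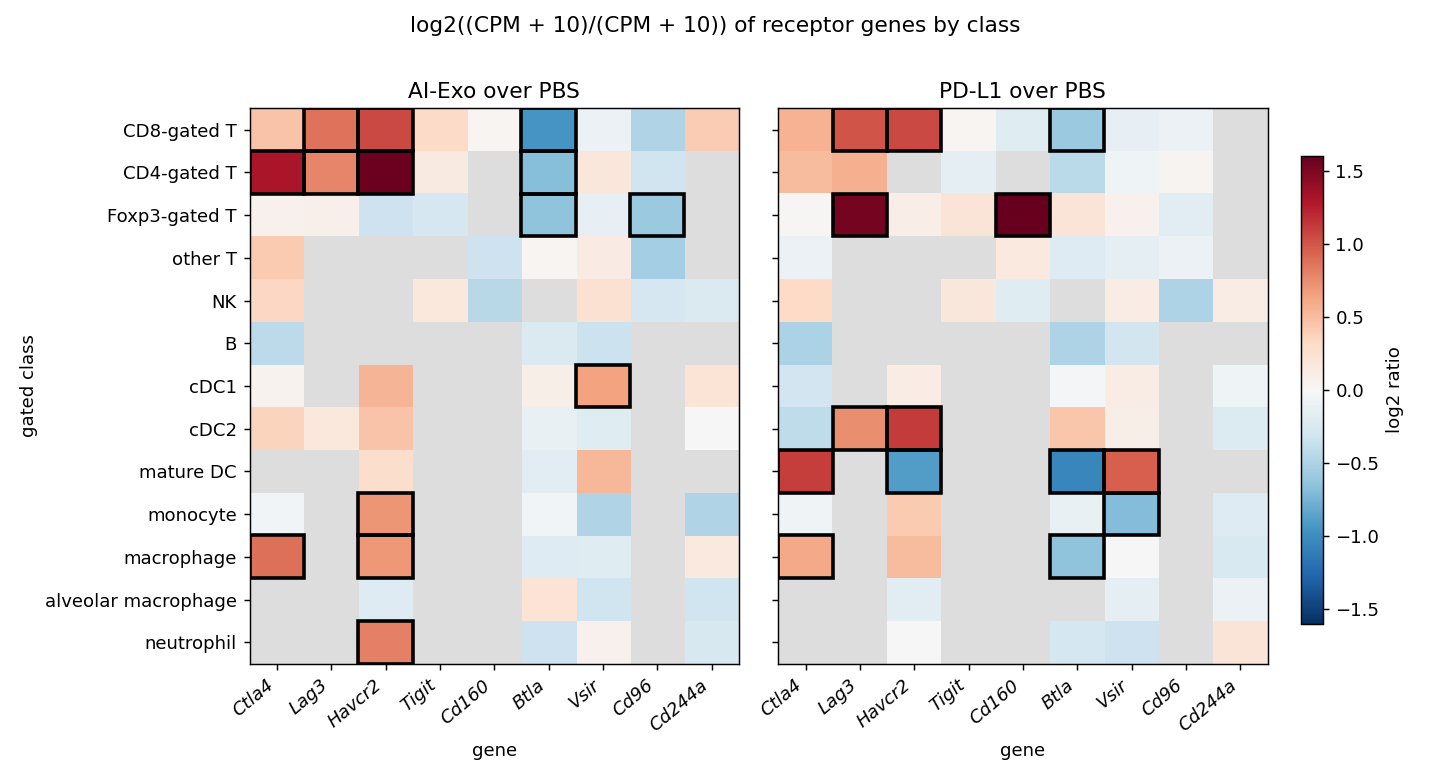
Log2 ratio of CPM plus 10 of each receptor gene (columns) in each marker-gated class (rows), AI-Exo over PBS on the left and PD-L1 over PBS on the right. Boxes mark ratios past 1.5-fold, and grey tiles had a mean under 10 CPM. Lag3 and Havcr2 are higher and Btla lower in CD8-gated cells on both sides, and Havcr2 is higher in neutrophils, monocytes and macrophages on the left side only at the size used for a call.

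T cells with genes of antigen receptor rearrangement such as Rag1, or with both Cd4 and Cd8 UMIs, numbered 42 in AI-Exo, 697 in PD-L1 and 672 in PBS, and were kept apart as an immature T-lineage class. Rag1 was at 140.1 CPM in PD-L1 and 164.4 CPM in PBS, and had 0 UMIs in AI-Exo, so the 42 AI-Exo cells are a different selection. Ctla4 was at 48.8 CPM in PD-L1 and 72.5 CPM in PBS, and Cd96 at 23.8 and 29.8 CPM. Btla, Vsir, Lag3 and Havcr2 were each at 10.7 CPM or less in both libraries. The 9 genes, apart from Ctla4 and Cd96, were thus little counted in these cells.

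The ligands, counterparts and signalling genes of the receptors were listed as 36 genes, of which 21 were listed as ligands. These include the MHC class II genes H2-Aa, H2-Ab1 and H2-Eb1, and with them Cd74, their invariant chain. Counts of ligand genes are thus not counts of separate ligands. By CPM over all libraries the ligands of CTLA-4 were led by different cells, Cd80 by neutrophils at 279.7 CPM, with mature dendritic cells at 258.5 CPM, and Cd86 by cDC2 at 704.7 CPM, with mature dendritic cells at 653.4 CPM. These orders did not hold in each library. Cd80 in PBS was higher in mature dendritic cells, at 405.8 CPM against 245.1 CPM in neutrophils, and Cd86 was higher in them than in cDC2 in AI-Exo, at 830.5 against 610.1 CPM, and in PBS, at 716.7 against 603.1 CPM. Also over all libraries, the MHC class II genes that LAG-3 binds were led by cDC2, and Lgals3, galectin-3, by alveolar macrophages at 2291.3 CPM, close to monocytes at 2225.3 CPM. Lgals9, the galectin bound by TIM-3, stood at 155.2 CPM in endothelial cells and 146.3 CPM in immature T-lineage cells, and Hmgb1 was led by immature T-lineage cells at 3021.7 CPM. Pvr, the poliovirus receptor bound by TIGIT and CD96, stood at 63.0 CPM in mature dendritic cells and 47.9 CPM in cDC2. Lgals3, Lgals9, Hmgb1 and Pvr each had another leading class in 1 or more libraries. Cd48, the ligand of 2B4, stood at 308.8 CPM in NK-gated cells and 291.7 CPM in CD8-gated cells. Fgl1, Igsf11 and Vsig8 reached at most 1.39, 1.68 and 0.461 CPM in any class over all libraries.

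For AI-Exo over PBS 5 of 14 ligand genes tested were called in monocytes, all higher, with a median log2 ratio of 0.35, beside 8.30% of all genes called and their median of 0.04. In macrophages 3 of 13 were called, all higher, with a median of 0.24, beside 7.38% and -0.08. PD-L1 over PBS gave 4 higher and 1 lower of 14 in monocytes, beside 13.3%, and 4 higher of 13 in macrophages, beside 4.32%. Cd74, the MHC class II invariant chain, was at 2183.2 CPM in AI-Exo, 1580.7 CPM in PD-L1 and 984.2 CPM in PBS in monocytes, and H2-Ab1 in macrophages at 2622.5, 3810.4 and 1608.8 CPM. Both genes were thus higher in the treated libraries. Cd80 in mature dendritic cells was lower in them, at 219.8, 165.5 and 405.8 CPM. Lgals3 in CD8-gated cells was at 293.5, 254.2 and 123.7 CPM, and in CD4-gated cells at 202.1, 60.1 and 135.2 CPM. Signalling genes used by the receptors, among them Ptpn6 (SHP-1), Ptpn11 (SHP-2) and Inpp5d (SHIP-1), had 0 of 9 called in CD8-gated and 0 of 9 in CD4-gated cells in each comparison. For AI-Exo over PBS, PD-L1 over PBS and AI-Exo over PD-L1, 5.14%, 2.73% and 2.58% of all genes were called in CD8-gated cells. In CD4-gated cells these shares were 5.28%, 4.95% and 7.38%. At such shares, 0 of 9 does not set the signalling genes apart from other genes. Pdcd1 was called in both classes, at log2 ratios over PBS of 0.79 and 0.82 in CD8-gated cells and of 0.97 and 0.61 in CD4-gated cells for AI-Exo and PD-L1.

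MHC class II transcripts were also counted in NK-gated and T cells, where H2-Eb1 in NK-gated cells was at 91.8 CPM in AI-Exo, 181.4 CPM in PD-L1 and 57.2 CPM in PBS. Free RNA was estimated to supply up to 29.3, 27.9 and 47.9 CPM of it. H2-Aa in CD4-gated cells was at 56.0, 23.9 and 18.6 CPM, beside free RNA estimates of 40.2, 31.4 and 30.7 CPM. In PD-L1 and PBS its level was thus no higher than the estimate. For the receptors the estimates were low. In CD8-gated cells the highest of any library was 2.38 CPM for Ctla4, 1.02 CPM for Havcr2 and 2.92 CPM for Btla. All these estimates rest on marker genes of other lineages, and the gate had already removed barcodes rich in those genes. They may thus be too low and are no upper bounds.

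Over 42 combinations of class and library, genes with a pattern most like each receptor were taken by Pearson's r of log2 CPM plus 10 among 7043 genes, as a description, since these units share libraries and lineages. Cd160 ran closest to the NK and cytotoxic genes Klrc1 (r = 0.98), Gzmb (0.97) and Ctsw (0.96), and Tigit to Fasl (0.92), Ifng (0.91) and Nkg7 (0.91). Cd96 ran with Fam189b (0.97) and Zap70 (0.96), a kinase of T cell receptor signalling, and Ctla4 with Cd5 (0.89), Faah (0.88) and Inpp4b (0.87). Btla was nearest H2-Ob (0.83), an MHC class II gene of B cells, Ap1s3 (0.83) and Fchsd2 (0.80), and Cd244a nearest Apobr (0.83), Rap1gap2 (0.82) and Tyrobp (0.82). Havcr2 ran with Naaa (0.86) and Nlrp1b (0.85), and Vsir was nearest P2rx7 (0.81), Fxyd5 (0.75) and Slfn2 (0.72). Lag3 ran with Rgs16 (0.72) and Gzmk (0.71).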

How the data were processed

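The deposited values are raw counts of UMIs per gene and barcode, not normalized by the authors. Libraries were 10x Genomics 3′ libraries per the labels' protocols. Per the file headers the software was Cell Ranger 7.1.0, but 3.0.2 per the submitters' processing notes. No source used here gives the genome build, annotation or treatment of intronic reads. The barcodes in the files numbered 858023, 794333 and 840360, with 76512500, 65997942 and 68386729 UMIs in AI-Exo, PD-L1 and PBS.

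Cells were classed here by 16 marker panels: the panel with most UMIs, at least 2, and no unrelated panel at over 25% of it. Barcodes led by the NK or group 2 innate lymphoid panel were also left out where the T cell panel was over 25% of it. T cells were split by Cd4, Cd8a or Cd8b1, Foxp3, Trdc and rearrangement genes. Pecam1 and Egfl7 were dropped from the endothelial panel and the rule on mixed barcodes was set after seeing the data. No doublet caller was run. A class rebuilt in this way may differ from the study's. CPM were computed per class and library with exact Poisson intervals, ratios with exact conditional intervals and shares with Clopper-Pearson intervals, all at 95% and for counting error only, since amplified reads from a single library are not independent animals. The share of free RNA was estimated from barcodes of at most 100 UMIs and the marker genes of other lineages, which the gate also used. Simulated counts with known changes were used to test the code.

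The receptors, partner lists and tests were chosen with earlier results of these data known. The text names all receptors; partner genes called at 50 CPM or more, up to 6 per comparison by size, with some left out here and further values added after they were seen; the class highest in each ligand; and for each receptor the 3 genes most alike, of which some are not reported here. Python 3.11.15, numpy 2.4.6, pandas 2.3.3, scipy 1.17.1 and matplotlib 3.10.9 were used.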

Additional observations from a re-analysis of the deposited data

Results flagged for a closer look

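Several receptors ran in opposite directions in different classes under the same comparison. None of these differences between classes was tested, since each group is 1 library, and each value is a log2 ratio past 1.5-fold. For AI-Exo over PD-L1, Btla was 0.88 in mature dendritic cells and -0.84 in Foxp3-gated T cells, with 14 UMIs in AI-Exo and 21 in PD-L1, where it was -0.15 without the cell of most UMIs in each library. Ctla4 was 0.79 in CD4-gated T cells and -1.03 in mature dendritic cells, where it had 4 UMIs in AI-Exo and 17 in PD-L1. Havcr2 was 1.17 in CD4-gated T cells and -0.67 in cDC2. For PD-L1 over PBS, Havcr2 was 1.12 in cDC2, where 1 cell held 27.4% of the PD-L1 UMIs. It was -0.89 in mature dendritic cells, where 1 cell held 39.4% of the PBS UMIs. Vsir was 0.96 in mature dendritic cells, from 19 UMIs in PD-L1 and 5 in PBS, and -0.69 in monocytes.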

How the results depend on the processing

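No paired analysis was possible because each group is 1 library, and for the same reason no library could be left out. The calls among receptors in the 4 lymphocyte classes numbered 9 for AI-Exo over PBS and 6 to 11 under the alternatives, and 5 for AI-Exo over PD-L1 and 4 to 7. For PD-L1 over PBS they numbered 5, but 10 with the stricter gate, 9 with the mean of per-cell CPM and 9 in effector-gene-positive T cells, and these held 3, 5 and 4 of the 5. The share of all genes called under each alternative is not given here, so these counts are not a result about the receptors alone. The causes were not tested. Leaving out effector-negative cells, the cell of most UMIs or CD4-gated cells with an Ikzf2 or Il2ra UMI was chosen after seeing the data. The share of CD8-gated cells with at least 2 receptors rose with depth by construction, to 16.0% in AI-Exo, 16.1% in PD-L1 and 11.7% in PBS at 2000 UMIs, and to 43.9%, 39.4% and 35.0% unthinned. Cd96 in Foxp3-gated cells reversed for AI-Exo over PBS, to 0.51 with the stricter gate in place of -0.60. In CD4-gated cells the stricter gate took Ctla4 for AI-Exo over PD-L1 to 0.17 and ended its call, and took it for PD-L1 over PBS to 1.21, which made a call. The stricter gate moved the most single ratios. With it 63 of 88 stayed within the counting interval of the value reported, 24 lay outside it and 1 had the other sign. Over all alternatives 992 of 1056 stayed within it, but some settings could not move a ratio. Leaving out the minimum CPM is one of them, with 87 of 88 within and 1 outside. The total is thus no measure of how stable the ratios are. Depth limits Lag3, Tigit and Cd160 outside T and NK cells and all receptors in the smaller classes.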
